A study of Equus caballus with 14 samples.

Results

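Matrix metalloproteinase (MMP) transcripts and the transcript of their inhibitor TIMP1 were examined in mediastinal lymph nodes of horses with recurrent airway obstruction (RAO), an inflammatory airway disease elicited by hay dust. The genes were taken by name: MMP1, MMP3, MMP9, MMP13 and TIMP1. The array carried 16 probes for these 5 genes among 43603 probes, of which those of 599 genes could be named here. MMP1 had 8 probes, TIMP1 had 5, and MMP3, MMP9 and MMP13 had 1 each.

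MMPs are zinc-dependent endopeptidases, secreted or bound to membranes, that cut proteins of the extracellular matrix and also process cytokines and chemokines. They are made as inactive proenzymes, and their genes are induced by inflammatory cytokines such as interleukin-1. MMP1 and MMP13 are collagenases that cleave fibrillar collagen, MMP3 is a stromelysin with a broad set of substrates that also activates other proMMPs, and MMP9 is a gelatinase stored in neutrophil granules and made by macrophages. TIMP1 is a secreted protein that binds active MMPs and blocks them. In the horse gene table, MMP1 and MMP3 were adjacent with 0 protein-coding genes between them, and 1 gene, MMP12, lay between MMP3 and MMP13.

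RNA of 7 RAO-affected horses and 7 control horses was compared, with 1 array per horse. All were adult animals of mixed breed, mares and geldings, with no genetic modification, and the RAO-affected horses were on average the older group. All 14 horses, controls included, came from pasture, were stabled for 14 days on wood shavings with dusty hay, and were killed for sampling, so the controls shared the dust exposure and differed in having stayed free of the disease. Each sample was a snap-frozen piece of node holding cortex and medulla, and transcript levels were not assigned to cells. In such bulk tissue, fewer cells of a type and less RNA per cell cannot be told apart.

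Values are log2 intensities after quantile normalization, in which 1 unit is a doubling, and each gene is described by the probe with the highest mean signal. The lymphoid markers that could be named, CD74 for B cells and CD2, CD28 and IL7R for T cells, were well above background on all 14 arrays. Between 32794 and 40020 probes per array were well above background and between 1439 and 2614 were saturated, and both ranges overlapped between the groups. The arrays lay on 4 slides. The 3 arrays of slide 1, from RAO-affected horse 4 and control horses 3 and 5, were scanned on another date and had a lower local background (45.5 to 46 against 55 to 97 intensity units).

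All 16 probes had a higher mean in RAO-affected horses, where the median difference over all tested probes was -0.03. The count includes MMP3, which was detected in 0 horses and differed by 0.04, and MMP13, which was detected in 1. No member passed the test after adjustment. Of the 14 probes bright enough to be tested, 5 were up-regulated at least 2-fold with an unadjusted p under 0.05 in limma (4 of MMP1 and the 1 of MMP9), against 1.10% of all tested probes called in that direction. With slide as a block in the fit, 1 of the 14 was called, the MMP9 probe, against 412 of the 38727 tested probes called higher. In the block fit the 8 MMP1 probes had unadjusted p of 0.0566 to 0.127. The 5 TIMP1 probes had unadjusted p of 0.0013 to 0.0033 there, and 0 of them passed 2-fold. Of all tested probes, 1624 had an unadjusted p under 0.05 and a higher mean in the block fit. Without the block and at any fold, 8 of the 14 had an unadjusted p under 0.05 and a higher mean, against 2.86% of all tested probes. Probes of 1 gene measured the same transcript and are not independent: over the 14 horses, the 28 pairs of MMP1 probes had r between 0.932 and 0.999, and the 10 pairs of TIMP1 probes between 0.969 and 0.998. After Benjamini-Hochberg adjustment, 0 of the 38727 tested probes passed in limma (2177 at an unadjusted p under 0.05), and the smallest adjusted p was 0.874. The 2 probes left untested were those of MMP3 and MMP13.

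**Figure D1:**
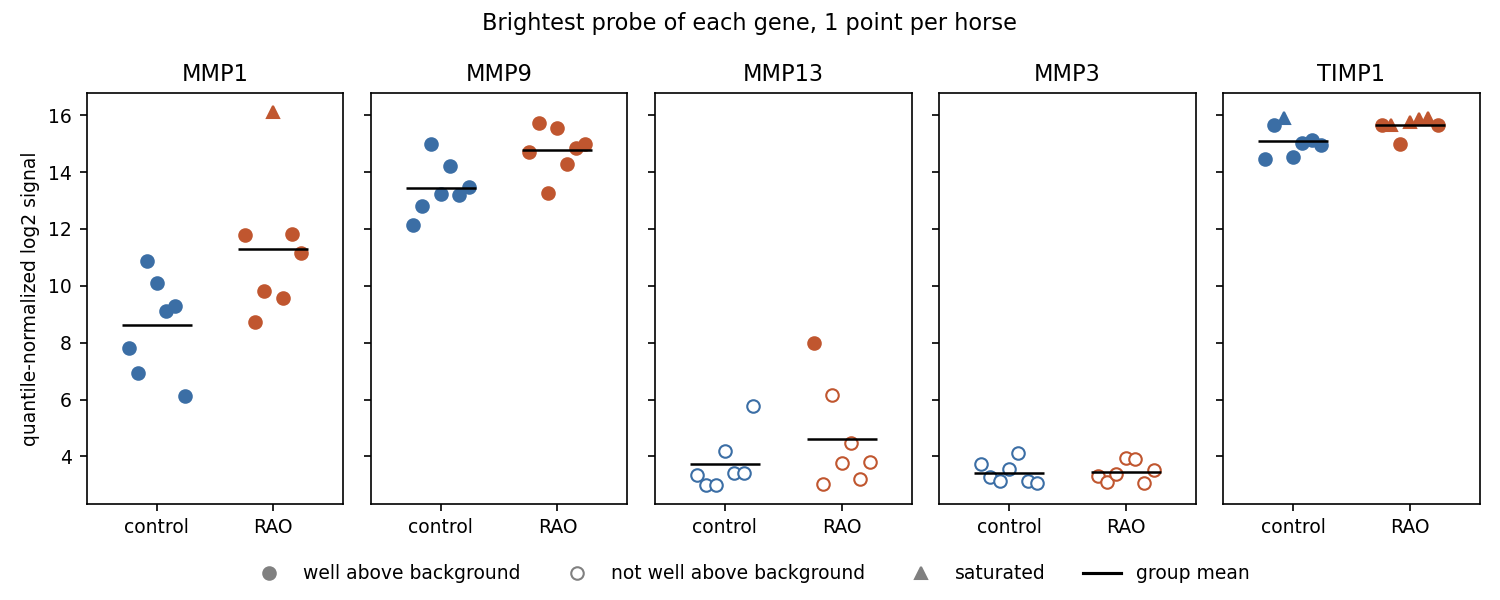
Quantile-normalized log2 signal (vertical axis) of the brightest probe of each gene, 1 point per horse, for 7 control and 7 RAO-affected horses. Open circles are spots not well above background, triangles are saturated spots and bars are group means. MMP1, MMP9 and TIMP1 were detected in every horse, whereas MMP13 was well above background in 1 horse and MMP3 in 0.

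MMP1, the interstitial collagenase, varied most between horses. In the controls its signal was lowest in horse 13 (6.13), had a median of 9.12 and was highest in horse 5 (10.87). In the RAO-affected horses it was lowest in horse 4 (8.73), had a median of 11.16 and was highest in horse 8 (16.11). The groups overlapped: 4 of the 7 RAO-affected horses lay above every control, the other 3 lay within the control range, and all 7 lay above the control mean.

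The MMP1 means were 11.28 ± 2.43 (SD, RAO-affected, n = 7) and 8.61 ± 1.71 (SD, control, n = 7). Their difference of 2.68 (SE 1.05), or 6.39-fold, gave p = 0.0256 by two-sided exact permutation and an adjusted p of 0.874 in limma. It was larger than the difference of 99.9% of tested probes, and the pooled SD of 2.10 was larger than that of 99.3% of them. The spot of RAO-affected horse 8 was saturated, so its value of 16.11 is a lower limit. In scanner units before normalization, the MMP1 signal ran from 73.3 in control horse 13 to 69640.6 in RAO-affected horse 8, with 2988.9 in the highest control and 3900.9 in RAO-affected horse 2.

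The 8 MMP1 probes fell into 2 sets by how far the groups lay apart. In the 3 brightest probes the difference was 2.63 to 2.68 (6.18- to 6.39-fold), with unadjusted limma p of 0.0217 to 0.0257, and 4 RAO-affected horses lay above every control in each. In the other 5 probes it was 1.87 to 2.11 (3.66- to 4.30-fold), with p of 0.0434 to 0.0673, and 1 of these probes was called. In those 5 probes, only RAO-affected horse 8 lay above every control.

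RAO-affected horse 8 was highest in all 8 probes. It reached 15.87 to 16.11 in the 3 brightest probes, with the next RAO-affected horse at 11.54 to 11.84. In the other 5 it reached 13.97 to 14.09, with the next at 9.54 to 9.61. Only 2 of the 8 spots of this horse, those of the probes A_69_P000781 and A_69_P000782, were saturated, so its high value was also measured within the scanner's range. Without this horse the difference in the brightest probe was 1.87, with an unadjusted limma p of 0.0355. In the 5 dimmer probes it was then 1.06 to 1.30, with unadjusted limma p of 0.0574 to 0.105. Control horse 13 was at the other end, and without it the difference in the brightest probe was 2.26 with an unadjusted limma p of 0.0525.

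**Figure D2:**
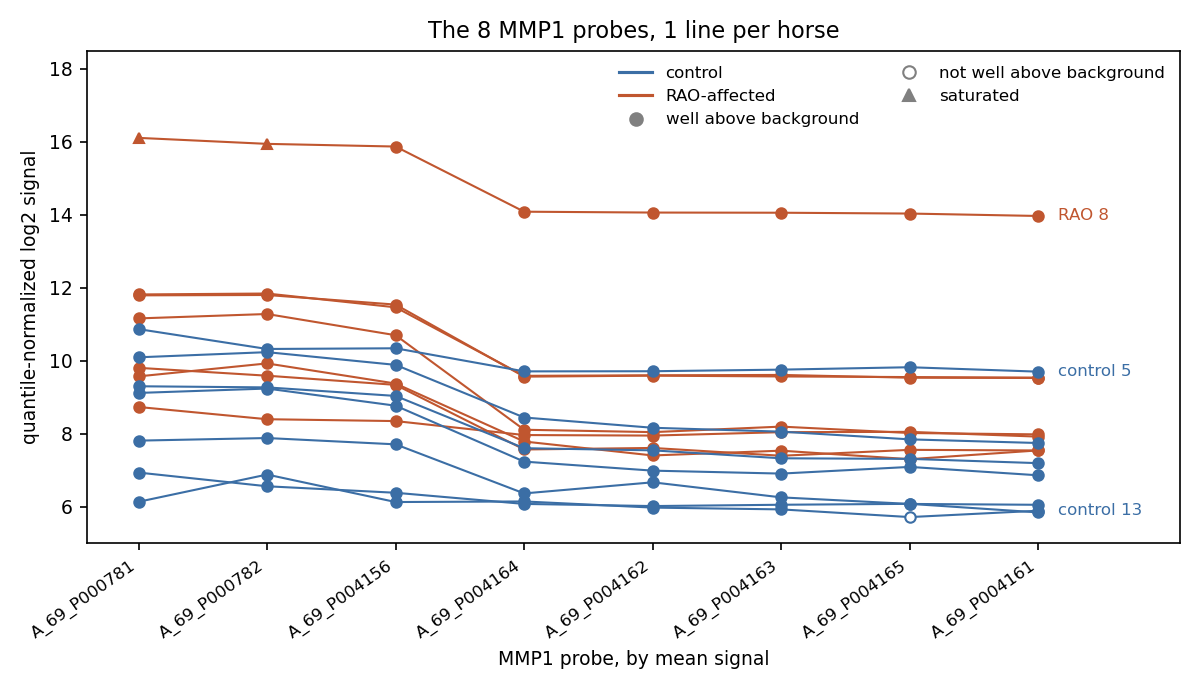
Quantile-normalized log2 signal (vertical axis) of the 8 MMP1 probes (horizontal axis, ordered by mean signal), with 1 line per horse. Blue lines are control horses and orange lines RAO-affected horses, triangles are saturated spots and the open circle is a spot not well above background. RAO-affected horse 8 is the top line in all 8 probes, and the remaining horses of the groups overlap more in the 5 dimmer probes.

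MMP9, gelatinase B, was higher in RAO-affected horses with less spread than MMP1. In the controls its signal was lowest in horse 1 (12.15), had a median of 13.23 and was highest in horse 5 (15.00). In the RAO-affected horses it was lowest in horse 6 (13.26), had a median of 14.85 and was highest in horse 4 (15.72). The groups overlapped in range: 2 of the 7 RAO-affected horses lay above every control, 6 lay above the control mean and all 7 above the control median.

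The MMP9 means were 14.76 ± 0.82 (SD, RAO-affected, n = 7) and 13.44 ± 0.93 (SD, control, n = 7). Their difference of 1.32 (SE 0.44), or 2.50-fold, gave p = 0.0204 by two-sided exact permutation and an adjusted p of 0.874 in limma. It was larger than that of 99.2% of tested probes. The single MMP9 probe was well above background and not flagged as saturated on all 14 arrays. Its highest signal, 60098.4 scanner units in RAO-affected horse 4, lay near the top of the scanner's range. On that array a TIMP1 probe at 59403.7 was flagged as saturated and another at 61082.2 was not. The unadjusted limma p of MMP9 stayed under 0.05 without each horse in turn, with differences between 1.11 and 1.58.

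TIMP1, the inhibitor, gave a high signal in every horse, and its measured difference between the groups was smaller than those of MMP1 and MMP9. In the controls the TIMP1 signal was lowest in horse 1 (14.45), had a median of 15.01 and was highest in horse 5 (15.89). In the RAO-affected horses it was lowest in horse 6 (14.98), had a median of 15.67 and was highest in horse 12 (15.91). The groups overlapped, and the order of the highest horses, RAO-affected horse 12 and control horse 5, cannot be read because both spots were saturated.

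The TIMP1 means were 15.64 ± 0.31 (SD, RAO-affected, n = 7) and 15.09 ± 0.53 (SD, control, n = 7). Their difference of 0.55 (SE 0.23), or 1.46-fold, gave p = 0.0495 by two-sided exact permutation and an adjusted p of 0.874 in limma. The spot was saturated in 4 RAO-affected horses and 1 control, so the values of these horses are lower limits. The size of the 0.55 difference is therefore limited by saturation, more so on the RAO-affected side. The other 4 probes gave differences up to 0.71 (1.64-fold). Of the 5 TIMP1 probes, which are not independent, 3 had an unadjusted p under 0.05, against 2.86% of all tested probes with a higher mean at that p. None of the 5 passed 2-fold. Every TIMP1 probe was saturated on some arrays, 3 of them in RAO-affected horse 8 and control horse 5 only. In these 3 probes, 1 to 3 RAO-affected horses read above every control, with the saturated value of control horse 5 as the limit. Leaving out 1 horse at a time gave differences of 0.44 to 0.68, with an unadjusted limma p under 0.05 in 8 of 14 cases. It was not under 0.05 without control horse 1, 7 or 13 or without RAO-affected horse 8, 10 or 12.

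MMP13, collagenase 3, passed the background limit only in RAO-affected horse 2 (7.98). The signal was 3.03 to 7.98 in RAO-affected horses, with a median of 3.79, and 2.99 to 5.79 in controls, with a median of 3.42. Apart from horse 2, RAO-affected horse 6 (6.15) and control horse 13 (5.79) had the highest signals, both not well above background. With 13 of the 14 horses not well above background, no fold is given, and without horse 2 the group means of these undetected signals differed by 0.33.

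MMP3, stromelysin 1, was not well above background in any of the 14 horses. Its signal ran from 3.08 to 3.95 in RAO-affected horses and from 3.05 to 4.11 in controls, so the groups covered nearly the same range and no fold is given. The lowest signal of any probe that counted as well above background ranged from 3.02 to 6.59 across the arrays. On the array with the lowest of these, the MMP3 signal lay above it and still did not count. These values are therefore not a detection limit for MMP3. By that spot flag, MMP3 was undetected in the same nodes in which its neighbour MMP1 was detected in every horse, including RAO-affected horse 8.

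Slides held horses of both groups, so each comparison was repeated within a slide. MMP9 was higher in RAO-affected horses on each slide: by 1.81 on slide 1, 1.29 on slide 2, 0.73 on slide 3 and 1.57 on slide 4. For MMP9 the groups did not overlap on any of the 4 slides, with all RAO-affected horses above all controls of the same slide, which 190 of the 38727 tested probes did (0.491%). The margin between the lowest RAO-affected and the highest control horse was narrow on slide 2 (0.03) and slide 3 (0.10), and wider on slide 1 (0.72) and slide 4 (1.36). With each array scaled to its 75th percentile in place of quantile normalization, these margins were 0.01, 0.13, 0.65 and 1.32 in the same order.

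MMP1 was not higher in the RAO-affected horse of slide 1 than in the mean of the controls there (difference -0.17), and differed by 1.85, 3.72 and 3.77 on slides 2, 3 and 4. Slide 3 held RAO-affected horse 8. With slide as a block the MMP1 difference was 2.40 (SE 1.14), with an unadjusted limma p of 0.0607 (adjusted 0.433). TIMP1 also had its lowest difference on slide 1, at -0.13 (0.07 with 75th percentile scaling, which turns its direction), against 0.82, 0.80 and 0.75 on slides 2, 3 and 4. The TIMP1 spots of RAO-affected horse 4 and control horse 5 were saturated, so the size and direction of the slide 1 difference cannot be read. With the block, the TIMP1 difference was 0.60 (SE 0.15), with an unadjusted limma p of 0.0026 (adjusted 0.356). The MMP9 difference was 1.36 (SE 0.39), with an unadjusted limma p of 0.0050 (adjusted 0.356). In that fit, 4600 of the 38727 tested probes had an unadjusted p under 0.05, and 0 passed after adjustment. Without the 3 horses of slide 1 the differences were 3.22 for MMP1, 1.35 for MMP9 and 0.82 for TIMP1. The part of slide 1 in the smaller MMP1 and TIMP1 differences over all horses was not tested, since that slide held 1 RAO-affected horse.

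**Figure D3:**
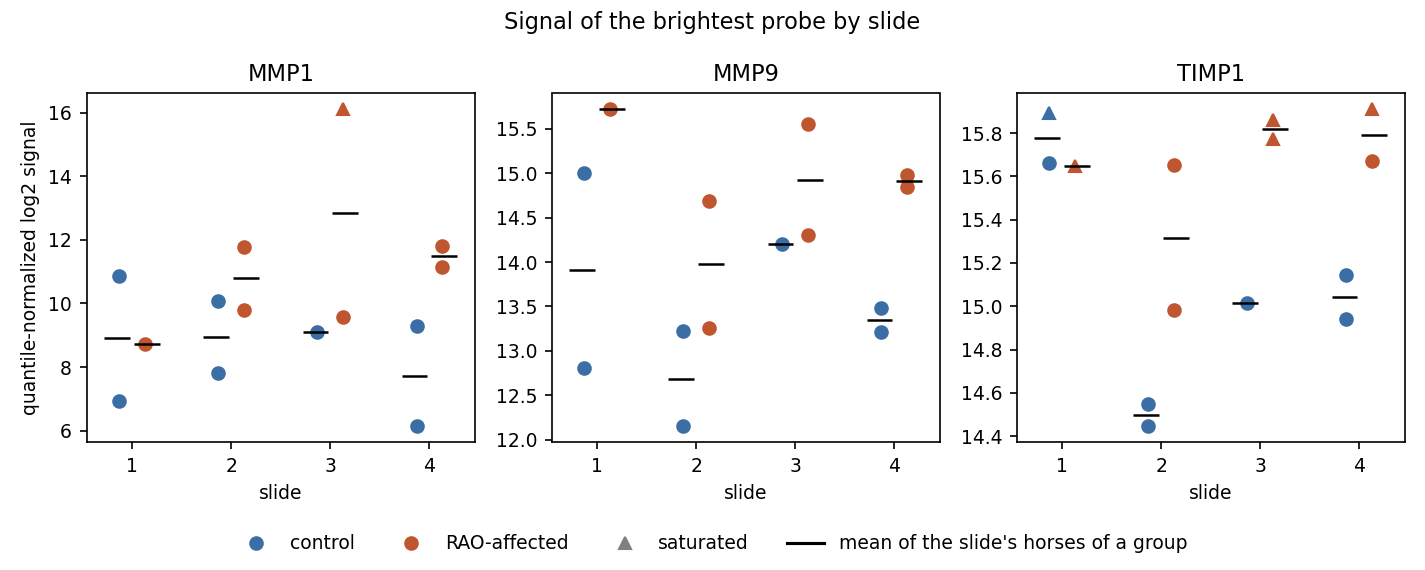
Quantile-normalized log2 signal (vertical axis, a separate scale per gene) of MMP1, MMP9 and TIMP1 by slide (horizontal axis), 1 point per horse, with bars for the mean of the horses of a group on that slide and triangles for saturated spots. The MMP9 points of the groups do not overlap within any slide, whereas on slide 1 the RAO-affected horse lies within the controls for MMP1 and below them for TIMP1 (above them by 0.03 with 75th percentile scaling). That TIMP1 order cannot be read, because the spots of this horse and of control horse 5 were saturated.

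Whether an enzyme and the inhibitor differed unequally between the groups was tested within horses, as the MMP minus the TIMP1 log2 value. The MMP1 difference between the groups exceeded that of TIMP1 by 2.13, with an exact permutation p of 0.0711 (adjusted p = 0.0711 over 2 comparisons). The MMP9 difference exceeded that of TIMP1 by 0.77, with an exact permutation p of 0.0629 (adjusted p = 0.0711). Neither passed, although both estimates were above 0, and without RAO-affected horse 8 the first was 1.35. Saturated TIMP1 spots, more frequent in RAO-affected horses, limit the TIMP1 side of both values.

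Across the 14 horses, MMP9 and TIMP1 had the closest relation of the 3 pairs, with Pearson r = 0.74 (permutation p = 0.0032, adjusted 0.0096) and Spearman rho = 0.64 (permutation p = 0.0168). Without control horse 1 and RAO-affected horse 4, the farthest from the MMP9 median, r was 0.67 (permutation p = 0.0209, adjusted 0.0626). Within groups, r was 0.59 in controls (exact permutation p = 0.170) and 0.67 in RAO-affected horses (exact permutation p = 0.229). In the RAO-affected horses rho was 0.07, far below their r. The TIMP1 spot was saturated in 4 RAO-affected horses, so their TIMP1 ranks cannot be read. RAO-affected horse 6 was the lowest of its group in both genes.

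MMP1 with MMP9 had r = 0.64 (permutation p = 0.0095, adjusted 0.0142) and rho = 0.56. Without control horse 13 and RAO-affected horse 8, r was 0.60 (permutation p = 0.0436, adjusted 0.0653). It was 0.57 in controls and 0.36 in RAO-affected horses. MMP1 with TIMP1 had r = 0.46 (permutation p = 0.0797) and rho = 0.58 (permutation p = 0.0344), also limited by the saturated TIMP1 spots. The pooled values of all 3 pairs include the group differences, within-group p values did not pass for any pair, and the slides held too few horses for values of their own.

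**Figure D4:**
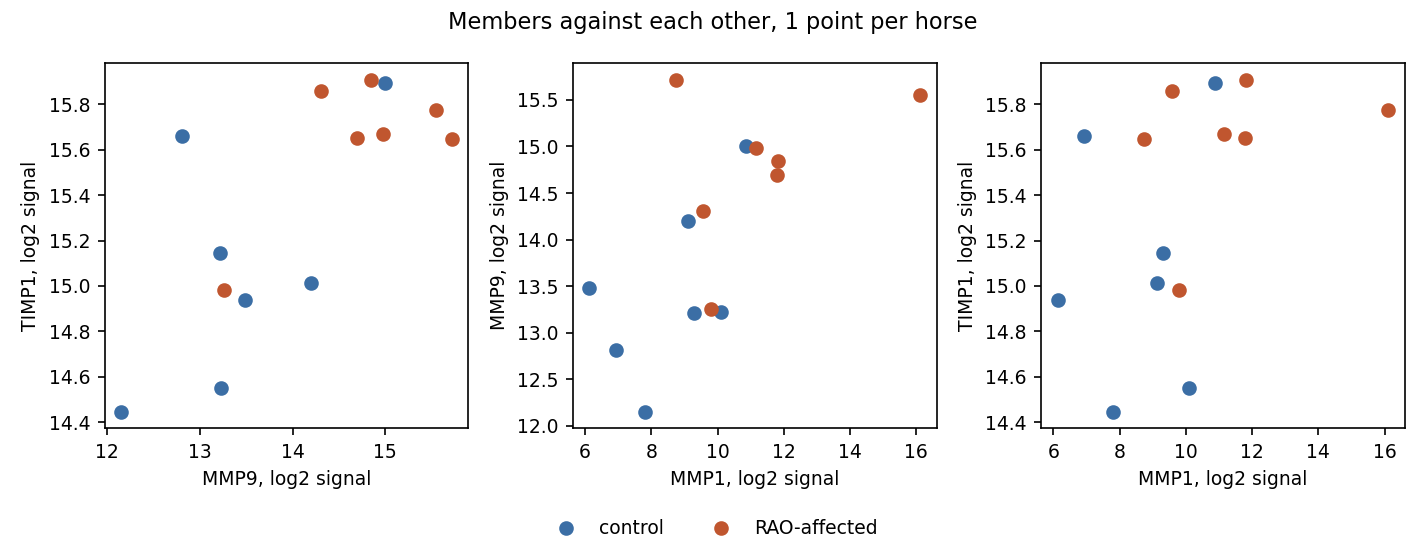
Log2 signal of TIMP1 against MMP9, MMP9 against MMP1 and TIMP1 against MMP1, 1 point per horse (14 horses; blue, control; orange, RAO-affected). Over all horses Pearson r was 0.74, 0.64 and 0.46 in that order, and the point farthest to the right in both MMP1 panels is RAO-affected horse 8.

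The named genes whose signals ran most like those of each member over the 14 horses were picked by Pearson r among 525 named genes, and are given as a description. For MMP1 these were SELP (r = 0.92), the P-selectin of endothelium and platelets, IL1B (0.88), which encodes interleukin-1 beta, and TNFAIP6 (0.88), a hyaluronan-binding protein induced by inflammatory cytokines. Without RAO-affected horse 8 their r was 0.87, 0.79 and 0.78. For MMP9 they were CD14 (0.88), the lipopolysaccharide co-receptor of monocytes and macrophages, PLA2G4A (0.86), a phospholipase that releases arachidonic acid, and DEFB4A (0.84), a beta-defensin. TIMP1 also ran closest to CD14 (0.89), followed by GSDME (0.88), a gasdermin, and BGN (0.84), the matrix proteoglycan biglycan. The points share arrays and slides, and the median r of all named genes with these members was 0.06 to 0.10.

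Few other genes of the MMP system could be named on this array. Of 24 other MMPs, TIMPs and related regulators listed, 2 were located: TIMP3, the matrix-bound inhibitor (difference 0.51, exact permutation p = 0.202), and BSG, the MMP inducer basigin (-0.10). Neither passed. Of 28 other matrix proteases and their inhibitors, the 1 located was the aggrecanase ADAMTS4 (0.01), which did not pass. The remaining genes of both lists were not analysed here.

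Among matrix substrates and matrix enzymes, 10 of 33 listed genes were located, and 9 had a higher mean in RAO-affected horses, with a median difference of 0.44 against -0.03 over all tested probes. Of the 10, 2 passed 2-fold with an unadjusted limma p under 0.05, both higher, against 1.10% of all tested probes, and 0 passed after adjustment. They were PRG4, the lubricating proteoglycan lubricin (difference 2.59, 6.04-fold), and LUM, the collagen-binding proteoglycan lumican (1.51, 2.85-fold, with 1 RAO-affected spot left out by its scanner flag, n = 6 against 7, and 3 of the spots saturated). PRG4 was well above background in only 6 RAO-affected and 4 control horses, so its fold rests partly on undetected signals. The fibrillar collagen genes located, COL2A1 and COL5A2, differed by 0.43 and 0.81, and neither passed.

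Of 28 listed inducers and transcription factors of MMP genes, 13 were located, with a median difference of 0.13, and 0 passed 2-fold. The largest absolute differences were those of PTGS2, the inducible cyclooxygenase (0.99, exact permutation p = 0.0758), and IL4, which encodes interleukin-4 (-0.98, exact permutation p = 0.0297). IL1B differed by 0.92 (exact permutation p = 0.0594). TNF differed by -0.12 and IL6 by 0.35, and neither passed.

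Some located markers of other cell types in the node were higher in RAO-affected horses before adjustment, and 0 markers of any list passed after it. Their counts stand against the 1.10% of all tested probes called higher at 2-fold. Of 10 macrophage or monocyte markers, 5 were located, all 5 with a higher mean and a median difference of 0.58. Of these, CD163, the haemoglobin scavenger receptor (2.61, 6.10-fold), and CD14 (1.11, 2.16-fold) passed 2-fold with an unadjusted limma p under 0.05. The mean level of the 5 per horse was 12.58 to 13.63 in RAO-affected and 11.82 to 13.38 in control horses. Of 9 endothelial markers, 5 were located, with a median difference of 1.21, and SELP (1.64) and CAV1 (1.21), the caveolae protein, passed. Their mean level per horse was 12.08 to 14.44 and 11.31 to 12.76.

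Of 12 fibroblast or chondrocyte markers, 4 were located (median difference 0.31, 1 called, LUM), with mean levels of 10.97 to 12.84 and 11.04 to 12.41. Of 14 lung or airway epithelial markers, 2 were located: SCGB1A1, the club cell secretory protein (1.33, 2.51-fold, exact permutation p = 0.0344), and the surfactant protein SFTPA1 (0.54, exact permutation p = 0.557). Their mean level was 10.52 to 14.63 in RAO-affected and 10.02 to 12.77 in control horses. The 3 T cell markers had a median difference of -0.41 and CD74, the only gene located from the B cell list, one of -0.47, and none of the 4 passed. Of 14 neutrophil markers listed, 0 were located, so neutrophils, a known source of MMP9, were not analysed here. The part of any of these cell types in the MMP1, MMP9 and TIMP1 differences was not tested.

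**Figure D5:**
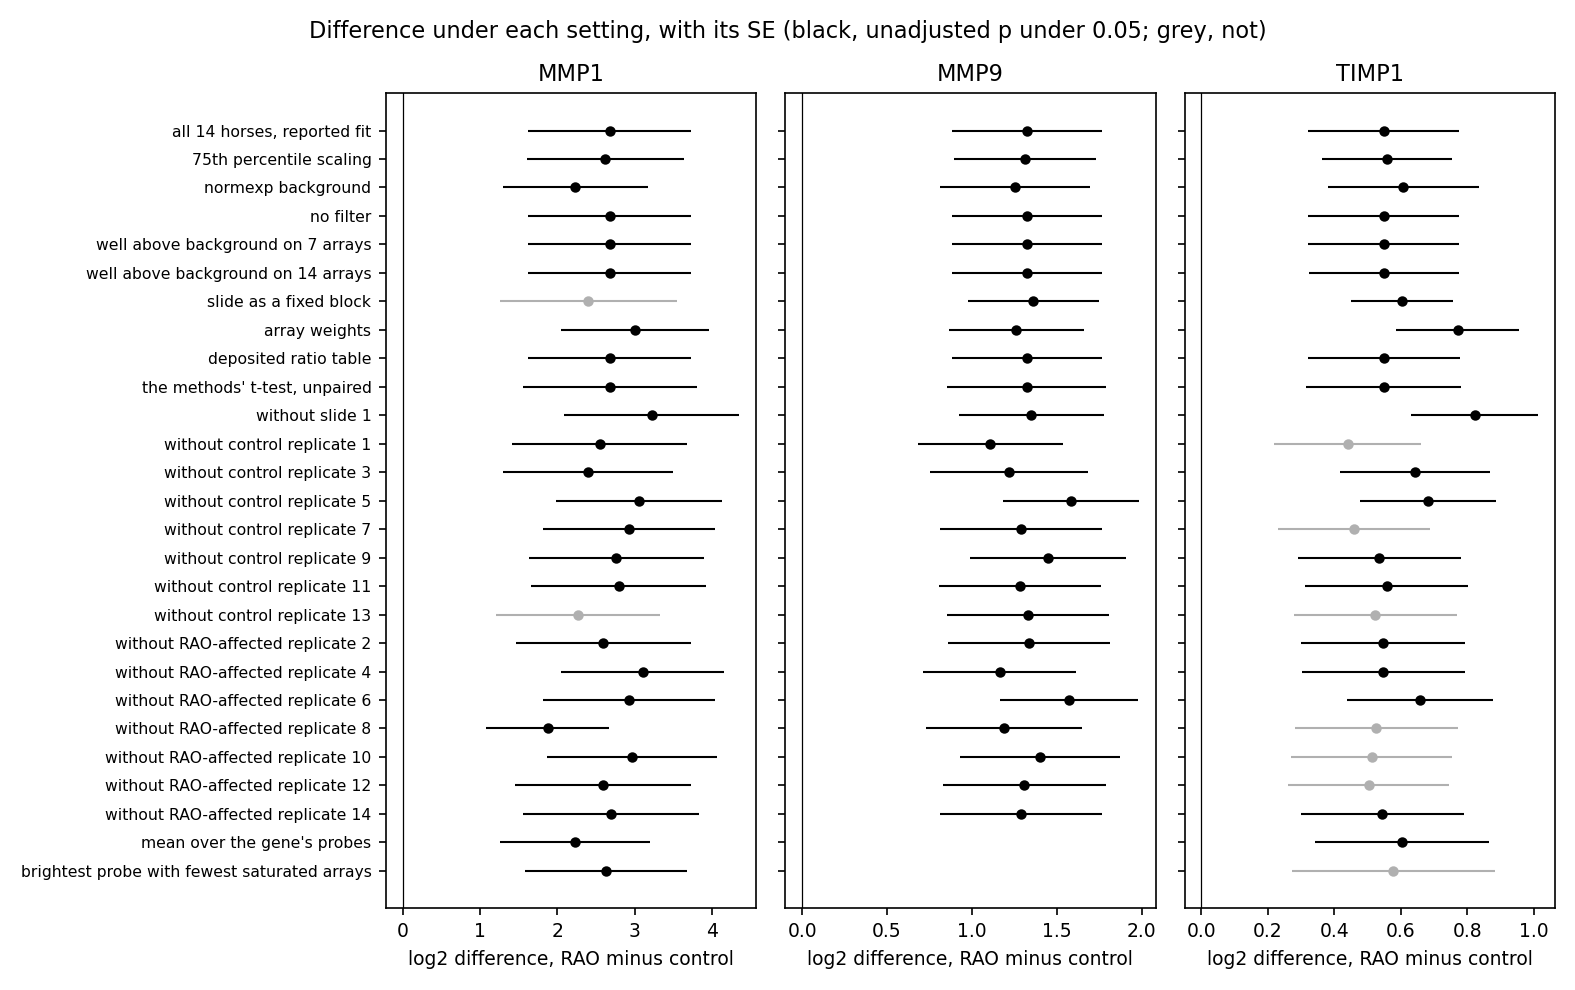
Difference between RAO-affected and control horses in MMP1, MMP9 and TIMP1 (horizontal axis, log2 units, a separate scale per gene; whiskers, SE) in the reported fit and under each other setting, including each horse left out (replicate numbers are horse numbers). Black points have an unadjusted limma p (for the methods' own test, its p) under 0.05 and grey points do not. All differences lie above 0, with MMP9 black throughout and MMP1 grey with slide as a block and without control horse 13. TIMP1 is grey in 6 of the settings that leave out 1 horse. It is also grey with the brightest of the probes tied for the fewest saturated arrays. The probes tied with it are not drawn and had unadjusted limma p of 0.0544 and 0.0176. The settings on the choice of probe have no MMP9 point because it had 1 probe.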

How the data were processed

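The authors deposited 1-colour (Cy3) Agilent scanner output for 14 arrays, with spot intensity processed by Feature Extraction (10.5.1.1 per the file headers, 9.1 in the submitters' processing notes), which subtracts background. They also deposited a value table that, per its values, is the ratio of quantile-normalized signal to each probe's median over the arrays. No per-sample column was left unused for want of a sample (0 columns). Per the study's methods, the array sequences drew on RefSeq predictions from the first horse genome assembly, with UniGene and expressed sequence tags. The files used here give no coordinates, so none are printed. The methods describe a smaller probe set, with a single probe per input sequence, than the 43603 probes in the files. The files were used as they are, and why several probes share an accession is not given in the sources used here. No probe sequences were used here.

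Processed signal was put on the log2 scale and quantile-normalized, control spots and flagged outlier spots were removed, and spots of 1 probe were averaged. Probes were named through their accession on the array (1251 of 43603 probes, 599 genes): 1231 through RefSeq accessions in a horse gene table, used without its coordinates, and 20 (among them CD163, PRG4 and DEFB4A) through accessions that the study pairs with gene symbols. Probes well above background on at least 4 arrays (38727) were tested with limma (3.58.1, R 4.3.3), two-sided and unpaired, with Benjamini-Hochberg adjustment over all of them. The study's test was paired, but the sources used here do not say which horses formed pairs. Single values were also tested by exact permutation of the group labels, which with 7 against 7 cannot give a p below 0.000583. Correlations used 100000 resamples (scipy 1.17.1) or all pairings within a group. Replicates were separate horses, and the number of arrays limits the precision.

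The named genes were the 5 members with all their probes, the 2 largest absolute differences in each list of related genes, and the 3 genes most correlated with each detected member. IL1B, TNF, IL6, COL2A1, COL5A2 and the members of marker lists are named beyond that rule, after their values were seen. Members and lists were chosen with earlier results of these data known. Alternatives were 75th percentile scaling, normexp background correction (offset 50), other filters on dim probes, slide as a block, array weights, the deposited table, the methods' t-test run unpaired, other choices of probe, and leaving out slide 1 or each horse. The brightest of the TIMP1 probes tied for the fewest saturated arrays was added after seeing the data. The fit was also run on simulated arrays with independent noise per probe. These held no slide effect, saturation or correlation between probes, so they do not bear on those limits of the members.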

Additional observations from a re-analysis of the deposited data

Results flagged for a closer look

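For MMP1, RAO-affected horse 8 lay apart from its group at 16.11, while the other 6 RAO-affected horses lay between 8.73 and 11.82. For TIMP1, RAO-affected horse 6 lay apart at 14.98, with the other 6 between 15.65 and 15.91. Each gap, as a share of the group's range, exceeded the 95% limit of Dixon's test for a single distant value. A total of 10 groups (5 genes, 2 groups of horses each) were tested, and chance flags about 1 in 20 groups. The MMP1 gap passed that limit in 7 of the 8 MMP1 probes, 6 of them unsaturated in this horse. The TIMP1 gap passed it only in the 2 probes saturated in 4 RAO-affected horses (67.5% and 71.7% of the range), and not in the 3 probes saturated in horse 8 alone (48.9% to 50.5%).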

How the results depend on the processing

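The MMP1, MMP9 and TIMP1 differences stayed above 0 under every alternative run, at 2.23 to 3.22, 1.25 to 1.36 and 0.55 to 0.82. With slide as a block MMP1 was 2.40, and its unadjusted limma p was not under 0.05. The brightest of the TIMP1 probes tied for the fewest saturated arrays gave 0.58, also with an unadjusted limma p not under 0.05. The probes tied with it gave 0.60 and 0.71, with unadjusted limma p of 0.0544 and 0.0176. The cause of these differences between settings and probes was not tested. Leaving out each horse gave 1.87 to 3.10 for MMP1, 1.11 to 1.58 for MMP9, 0.44 to 0.68 for TIMP1, -0.04 to 0.15 for MMP3 and 0.33 to 1.23 for MMP13. It gave 1.35 to 2.55 for MMP1 minus TIMP1 and 0.57 to 0.92 for MMP9 minus TIMP1. The number of probes called over the whole array (570 in the reported fit, at 2-fold and that p) was 262 with normexp background, 299 with a filter on all 14 arrays (fewer probes tested), 1112 without slide 1 and 388 to 1120 without 1 horse (1120 without RAO-affected horse 4, which lay on slide 1). Within groups, with fewer horses, no correlation passed: MMP1 with MMP9 was 0.57 in controls and 0.36 in RAO-affected horses, and MMP9 with TIMP1 was 0.59 and 0.67. No paired analysis was possible because the groups share no replicate number and the pairs of horses are not given. Saturation limits TIMP1 and the highest MMP1 value, and low signal limits MMP3 and MMP13.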
